A study of Mus musculus with 8 samples.

Results

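Described here are 10 genes of axon injury and regrowth: Sprr1a, Ecel1, Gap43, Atf3, Sox11, Gadd45a, Stmn2, Stmn4, Klf6 and Klf4. All but Klf4, which represses axon growth, are genes that injured neurons are known to switch on or that build the growing axon. The members were taken by name from the deposited count table, where 10 of 10 were found among 56691 gene IDs. Each of them also passed the filter on low counts that left 19912 genes for testing. The study sequenced mRNA bound to tagged ribosomes in the ventral tegmental area (VTA), a midbrain source of dopamine for striatum and cortex, to ask how knockdown of Ogt alters the messages of its dopamine neurons. The product of Ogt is O-GlcNAc transferase, which modifies proteins with single O-GlcNAc sugars. The 4 Ogt knockdown libraries (replicates 2, 3, 4 and 5) came from Ogt flox+/Y mice and the 4 control libraries (replicates 3, 4, 5 and 6) from Ogt flox-/Y mice, all carrying a Y chromosome. Mice of both genotypes had AAV-TH-Cre as well as AAV-Flex-NBL10 delivered to the VTA. AAV-TH-Cre is a virus whose Cre recombinase depends on the tyrosine hydroxylase promoter, and AAV-Flex-NBL10 adds an HA-tagged NBL10 protein, through which ribosomes were enriched. The control mice therefore had the surgery, both viruses and the tag as well, and uninjected tissue was not analysed here. The labels give no ages and do not say that replicates were separate animals. The p-values therefore reflect no more than the spread among these libraries, part of which may be technical.

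When a peripheral axon is cut, signals from the injury site, among them the kinases DLK and JNK, reach the nucleus and switch on transcription factors such as Atf3, Jun and Sox11. These raise effectors of regrowth such as Gap43, the small proline-rich protein Sprr1a and the peptidase-like protein Ecel1, and programs of regrowth and of cell death overlap in these genes. Neurons of the adult brain switch on the program weakly. Several members are also expressed without injury: Gap43 and the stathmins are abundant in many neurons, and Klf4, Klf6, Atf3 and Gadd45a are made by vascular, glial and immune cells too.

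Of the 10 members, 4 were lower in the knockdown libraries (Sprr1a, Ecel1, Gap43 and Stmn2), 1 was higher (Sox11) and 5 did not pass the test (edgeR's quasi-likelihood test, Benjamini-Hochberg adjusted p under 0.05 over all genes tested). These 4 growth and injury effectors fell 1.64-fold to 10.14-fold, and the transcription factor Sox11 rose 1.39-fold. Over all 19912 genes the same test called 28.5% (15.1% of all genes lower and 13.4% higher), so 5 of 10 is above the share of genes called, in a set chosen with results of these data known. In the same 5 members the 4 knockdown libraries did not overlap the 4 control libraries, as in 35.1% of all genes tested. The median log2 fold change of the members was -0.59, against 0.002 over all genes tested.

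**Figure D1:**
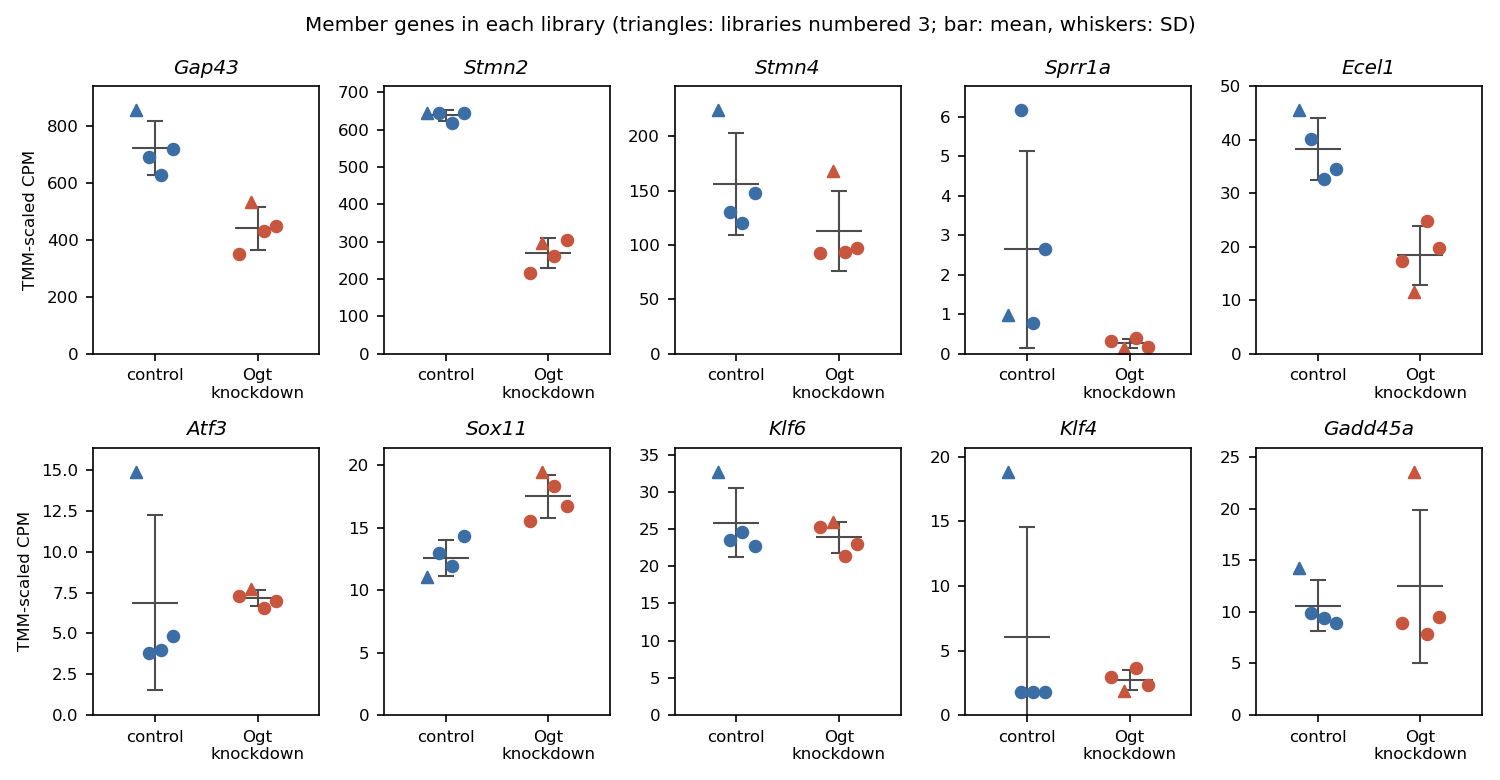
Level in CPM (reads relative to the library's total, scaled by TMM) of each member in each of the 8 libraries, with a bar at the group mean and whiskers of 1 SD (n = 4 per group, whiskers cut off at 0), and triangles for the libraries numbered 3. Stmn2 is the tightest control group, from 617.1 to 645.5 CPM, and control replicate 3 stands alone at 18.85 CPM for Klf4 and 14.9 CPM for Atf3.

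The stretch before a gene's start is shown for the 3 members that passed the test and have an entry in the RefSeq promoter table (GRCm38.p6), since AP-1 dimers of Jun and Atf3-type factors are a known switch of injury genes. Each run is the 250 bases before the start, 5′ to 3′ on the gene's strand, with AP-1 motifs in capitals. The windows are chr3:92485882-92486131 on the minus strand for Sprr1a, chr1:87156357-87156606 on the minus strand for Ecel1, and chr12:27342719-27342968 on the minus strand for Sox11.
Sprr1a: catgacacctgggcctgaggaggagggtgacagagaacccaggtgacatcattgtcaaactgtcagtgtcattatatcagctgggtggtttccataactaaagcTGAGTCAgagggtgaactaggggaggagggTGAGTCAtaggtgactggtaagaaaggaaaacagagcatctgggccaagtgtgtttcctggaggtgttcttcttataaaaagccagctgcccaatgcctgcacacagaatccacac
Ecel1: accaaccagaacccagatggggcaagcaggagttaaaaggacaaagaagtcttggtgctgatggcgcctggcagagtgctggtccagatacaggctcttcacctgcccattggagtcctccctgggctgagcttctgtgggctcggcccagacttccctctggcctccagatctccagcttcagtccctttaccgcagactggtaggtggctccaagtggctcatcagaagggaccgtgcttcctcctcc
Sox11: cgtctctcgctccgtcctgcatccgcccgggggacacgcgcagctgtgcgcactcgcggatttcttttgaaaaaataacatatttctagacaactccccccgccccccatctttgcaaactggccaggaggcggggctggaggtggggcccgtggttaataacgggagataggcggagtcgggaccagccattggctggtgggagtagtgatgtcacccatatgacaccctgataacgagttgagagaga
Sprr1a held 2 copies of the AP-1 motif TGANTCA, both spelled TGAGTCA and starting 146 and 116 bases before its start, and no other of the 7 members in the table held any. Of 32851 windows of this length, 6.75% held the motif and 0.338% held 2 or more copies (both strands searched). The motifs TGACGTCA (the cyclic AMP response element, CRE) and TTCNNNGAA (STAT) were found in 1.55% and 7.02% of windows and in none of the 7 members. Each of the 3 motifs reads the same on both strands, so a site was counted once. A match is a description of letters, and a window without one says nothing about a factor's binding.

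Depth ranged from 49802305 to 147747191 counted reads, so that 3 reads, used as a floor, were worth 0.0203 to 0.0602 CPM (counting error only). Ogt was lower in every knockdown library (35.99 to 74.43 CPM) than in every control library (108.3 to 159.4 CPM, log2 fold change -1.34 ± 0.23 SE, edgeR adjusted p = 0.00243). Control replicate 3 and knockdown replicate 3 lay apart from their groups, and calls of the genes named below that turn on them are given without them as well. Summed markers of endothelial cells were 1081 CPM in control replicate 3, 15.95 to 23.66 in the other controls and 31.66 to 51.62 in the knockdown libraries. Markers of pericytes, smooth muscle and fibroblasts stood at 631.5, 17.3 to 23.72, and 37.01 to 61.42 CPM in the same order. All 12 dopamine neuron markers were detected in every library, and 10 of them were lower and 1 higher in the knockdown libraries, with a median log2 fold change of -1.67. They summed to 1987 to 3352 CPM in controls and 1762 to 2364 in knockdowns, sums that include the higher one, Aldh1a1, at 498.6 to 979.5 and 1323 to 1951 CPM. Th, the enzyme of dopamine synthesis, stood at 435 to 1241 and 180.1 to 282.4 CPM. Astrocyte markers summed to 1510 CPM in control replicate 3, 3859 to 5719 in the other controls and 9934 to 13930 in knockdowns, and microglia and macrophage markers to 14.87 to 29.72 and 47.25 to 153.6 CPM, so messages of cells other than dopamine neurons were present in both groups. Oligodendrocyte markers summed to 1287 to 1907 and 1975 to 4479 CPM, and ependymal markers to 22.17 to 47.64 and 63.84 to 77.98 CPM.

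Among the growth proteins, Gap43 (ENSMUSG00000047261.10, chromosome 16, 42068805 to 42161014, minus strand, GRCm39 as are all positions from here on) encodes growth-associated protein 43, a membrane protein of growth cones and presynaptic endings. Its level was 856.7, 693.3, 628.8 and 719.2 CPM in control replicates 3, 4, 5 and 6, and 350.5, 533.4, 430.1 and 449.3 CPM in knockdown replicates 2, 3, 4 and 5. Every knockdown library was below every control library, and knockdown replicate 3 was the nearest to them. The mean fell 1.64-fold, from 724.5 ± 95.96 to 440.8 ± 75.09 CPM (SD, n = 4 each, log2 fold change -0.72 ± 0.16 SE, edgeR adjusted p = 0.00894). A microRNA gene annotated inside it, Mir6540, had no reads.

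Stmn2 (ENSMUSG00000027500.11, chromosome 3, 8574420 to 8626666, plus strand) encodes stathmin 2, also called SCG10, a microtubule-binding protein of growth cones that is lost early from degenerating axons. It stood at 643.3, 645.5, 617.1 and 645.2 CPM in the controls and at 214.4, 296, 261.3 and 303.6 CPM in the knockdown libraries. The control values spread by a coefficient of variation of 2.16%, and the highest knockdown library was well below the lowest control. Stmn2 fell 2.37-fold, from 637.8 ± 13.81 to 268.8 ± 40.71 CPM (SD, n = 4 each, log2 fold change -1.25 ± 0.14 SE, edgeR adjusted p = 0.000413), and ranked 169 of 19912 genes by p.

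Stmn4 (ENSMUSG00000022044.15, chromosome 14, 66581745 to 66599129, plus strand), another neuronal stathmin, gave 224.1, 130.8, 120.2 and 148.1 CPM in the controls and 92.24, 168.3, 93.19 and 97.65 CPM in the knockdown libraries. In each group the library numbered 3 was the highest, and 3 of 4 knockdown libraries were below every control. With all 8 libraries it did not pass the test (log2 fold change -0.47 ± 0.25 SE, edgeR adjusted p = 0.193). Without both libraries numbered 3 it was lower by 1.41-fold, from 133 ± 14.09 to 94.36 ± 2.889 CPM (SD, n = 3 each, edgeR adjusted p = 0.000712, where 46.8% of all genes tested were called). Without knockdown replicate 3 alone it was lower by 1.65-fold (edgeR adjusted p = 0.0299). Over all 17 alternatives its adjusted p ranged from 0.000712 to 0.406.

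The falls of these neuronal messages went with lower neuronal markers. Of 10 pan-neuronal markers 9 were lower in the knockdown libraries, with summed levels of 8317 to 9047 CPM in controls and 3311 to 3990 CPM in knockdowns and a median log2 fold change of -1.18. In such ribosome-enriched libraries fewer cells of a type, less RNA per cell and a different degree of enrichment cannot be told apart. The part of these markers in the members' changes was not tested. As a description chosen after the values were seen, each member's CPM was expressed as a percent of that marker sum in the same library. Stmn2 then stood at 7.312 ± 0.3161% in controls and 7.435 ± 0.9256% in knockdowns, and Ecel1 at 0.4372 ± 0.0603% and 0.5046 ± 0.1332% (SD, n = 4), with overlapping groups for both. Sprr1a still had a lower mean in knockdowns, at 0.00715 ± 0.00347% against 0.02997 ± 0.02745% in controls (SD, n = 4). Its groups overlapped, at 0.00883 to 0.0681% in controls and 0.00414 to 0.0107% in knockdowns. Gap43 had the opposite order on this scale, from 8.306 ± 1.129% to 12.24 ± 2.252%, with every knockdown library above every control. The divisor was lower in every knockdown library, and 69.1% of all genes tested lay above the controls without overlap on this scale while 0.588% lay below. Of the members 5 lay above (Gap43, Atf3, Sox11, Gadd45a and Klf6) and none below.

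Among the injury effectors, Sprr1a (ENSMUSG00000050359.8, chromosome 3, 92391259 to 92393202, minus strand) encodes a small proline-rich protein of the skin's outer layer that injured sensory neurons also make. Its level was 0.975, 6.159, 0.773 and 2.652 CPM in control replicates 3, 4, 5 and 6, resting on 72, 295, 96 and 375 reads. The knockdown libraries gave 0.315, 0.145, 0.4 and 0.165 CPM, from 32, 8, 30 and 14 reads. All knockdown libraries were below all controls, and the controls themselves differed widely, with replicate 4 highest. Sprr1a fell from a mean of 2.64 ± 2.493 to 0.256 ± 0.1221 CPM (SD, n = 4 each), 10.14-fold in the fit (log2 fold change -3.34 ± 0.71 SE, edgeR adjusted p = 0.00695). Without control replicate 4 the fall was 5.81-fold (edgeR adjusted p = 0.019, range over the alternatives 2.37e-06 to 0.0458).

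Ecel1 (ENSMUSG00000026247.14, chromosome 1, 87075377 to 87084243, minus strand) encodes endothelin-converting enzyme-like 1, also called DINE for its induction in damaged neurons, which despite its name is a neuronal protein. It stood at 45.48, 40.21, 32.72 and 34.44 CPM in the controls and at 17.24, 11.58, 24.69 and 19.82 CPM in the knockdown libraries. The groups did not overlap, and knockdown replicate 3 was the lowest of all 8 libraries. Ecel1 fell 2.08-fold, from 38.21 ± 5.808 to 18.33 ± 5.46 CPM (SD, n = 4 each, log2 fold change -1.06 ± 0.22 SE, edgeR adjusted p = 0.00653).

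Among the transcription factors, Sox11 (ENSMUSG00000063632.7, chromosome 12, 27384263 to 27392573, minus strand, a gene of 1 exon) encodes a SoxC factor of immature neurons that promotes regrowth of injured axons. It stood at 11.03, 13.01, 11.97 and 14.3 CPM in the controls and at 15.53, 19.48, 18.34 and 16.75 CPM in the knockdown libraries. Every knockdown library was above every control, by a margin smaller than the range within either group. Sox11 rose 1.39-fold, from 12.58 ± 1.405 to 17.52 ± 1.738 CPM (SD, n = 4 each, log2 fold change 0.48 ± 0.15 SE, edgeR adjusted p = 0.0338). This call was lost without control replicate 4, 5 or 6 (adjusted p = 0.0917, 0.0965 and 0.0529) and without knockdown replicate 4 or 5 (0.109 and 0.0769). Over all 17 alternatives the log2 fold change ranged from 0.36 to 0.60 and the adjusted p from 0.00978 to 0.139. In the same knockdown libraries neuronal markers were lower, and astrocyte (3 of 10 called) and microglial markers (10 of 12 called) were higher. The part of either change in the rise of Sox11 was not tested.

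Atf3 (ENSMUSG00000026628.14, chromosome 1, 190902493 to 190950236, minus strand) encodes activating transcription factor 3, the usual marker of an axotomised neuron and a stress-response gene of many other cells. It stood at 14.9, 3.8, 4.01 and 4.845 CPM in the controls and at 7.262, 7.747, 6.583 and 6.989 CPM in the knockdown libraries. Control replicate 3 was the highest of the 8 libraries, while the other 3 controls were below every knockdown library. With all libraries the log2 fold change was 0.05 ± 0.41 SE (edgeR adjusted p = 0.94). Without control replicate 3 Atf3 was higher by 1.69-fold, from 4.218 ± 0.5527 (SD, n = 3) to 7.145 ± 0.4886 CPM (SD, n = 4), with a log2 fold change of 0.75 ± 0.17 SE and an edgeR adjusted p = 0.00736, a choice of libraries under which 34.9% of all genes tested were called. Without both libraries numbered 3 it was higher by 1.64-fold (edgeR adjusted p = 0.00392, range over the alternatives 0.00392 to 0.988). The unnamed antisense gene that overlaps it had no reads.

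Klf4 (ENSMUSG00000003032.9, chromosome 4, 55527143 to 55532466, minus strand) encodes a Krüppel-like factor that represses axon growth in neurons and is also made by endothelium. It stood at 18.85 CPM in control replicate 3, at 1.775, 1.764 and 1.775 in the other controls, and at 2.909, 1.882, 3.678 and 2.31 CPM in the knockdown libraries. With control replicate 3 the log2 fold change was -1.16 ± 0.80 SE (edgeR adjusted p = 0.313), and without it 0.60 (adjusted p = 0.113). Without both libraries numbered 3 Klf4 was higher in the knockdown libraries by 1.67-fold, from 1.771 ± 0.00661 to 2.966 ± 0.6857 CPM (SD, n = 3 each, log2 fold change 0.74, edgeR adjusted p = 0.0235, range over the alternatives 0.0235 to 0.788). The direction for Klf4 thus turned on 1 control library, the same one with 1081 CPM of endothelial markers. Its relative Klf2, a flow-induced gene of endothelium, had the same order, with 50.5 CPM in control replicate 3, 1.086 to 1.634 in the other controls and 2.372 to 6.371 in the knockdown libraries. The log2 fold change of Klf2 was -1.94 with all libraries (edgeR adjusted p = 0.263) and 1.37 without control replicate 3 (adjusted p = 0.0185, range over the alternatives 0.01 to 0.903). The 10 endothelial markers themselves had a median log2 fold change of -2.75 with all libraries and of 1.25 without control replicate 3, where 6 of them were higher in the knockdown libraries. The part of vascular RNA in the Klf4, Klf2 and Atf3 values was not tested.

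**Figure D2:**
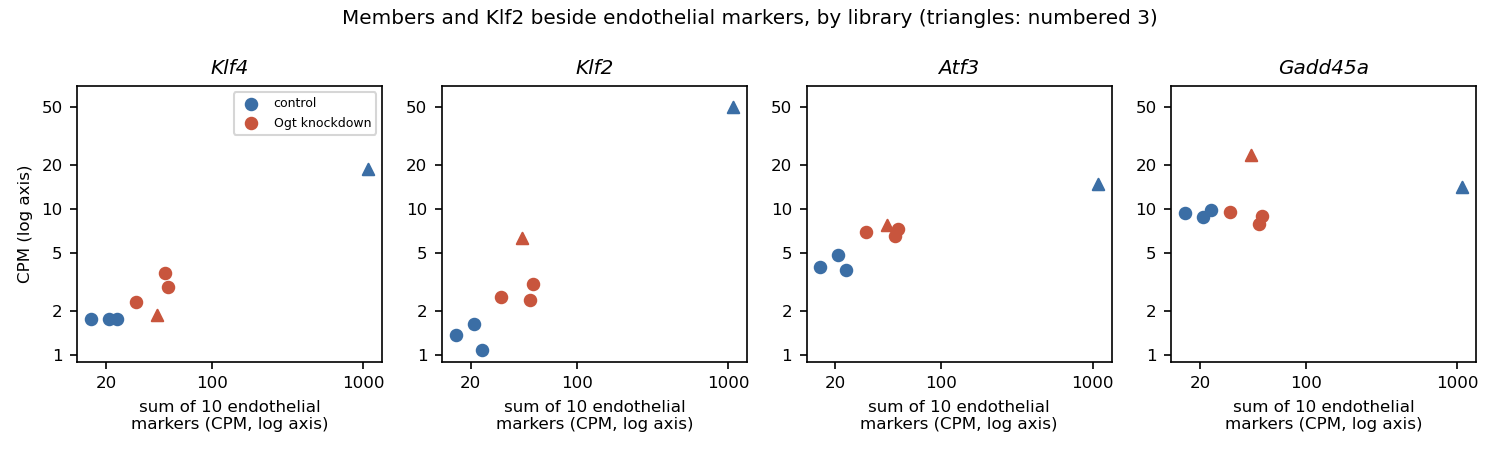
CPM of Klf4, its relative Klf2, Atf3 and Gadd45a (vertical, log axis) against the summed CPM of 10 endothelial markers (horizontal, log axis), 1 point per library, triangles for the libraries numbered 3. Control replicate 3 lies alone at 1081 CPM of markers and is the highest library for Klf4, Klf2 and Atf3, while the highest Gadd45a library is knockdown replicate 3 at 43.68 CPM of markers.

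Klf6 (ENSMUSG00000000078.8, chromosome 13, 5911481 to 5920393, plus strand), a Krüppel-like factor that promotes axon growth, stood at 32.7, 23.51, 24.59 and 22.72 CPM in the controls and at 25.26, 25.97, 21.44 and 22.99 CPM in the knockdown libraries. The groups overlapped, with control replicate 3 again highest. Klf6 did not pass the test (log2 fold change -0.11 ± 0.15 SE, edgeR adjusted p = 0.615), nor without control replicate 3, where the sign turned (0.015 on the log2 scale).

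Gadd45a (ENSMUSG00000036390.9, chromosome 6, 67012080 to 67014441, minus strand) encodes a DNA-damage and stress-induced protein that rises in axotomised sensory neurons. It stood at 14.27, 9.876, 9.43 and 8.883 CPM in the controls and at 8.923, 23.6, 7.902 and 9.559 CPM in the knockdown libraries. Knockdown replicate 3 was far above the rest, and the other 3 knockdown libraries lay within or below the control range. The log2 fold change was 0.23 ± 0.35 SE with all libraries (edgeR adjusted p = 0.649) and -0.27 without knockdown replicate 3 (adjusted p = 0.343, the lowest of the alternatives, which reached 0.816). An antisense gene, E230016M11Rik, overlaps Gadd45a and stood at 1.195 to 2.015 CPM. Reads were counted without strand, so reads of the overlap could not be told apart.

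**Figure D3:**
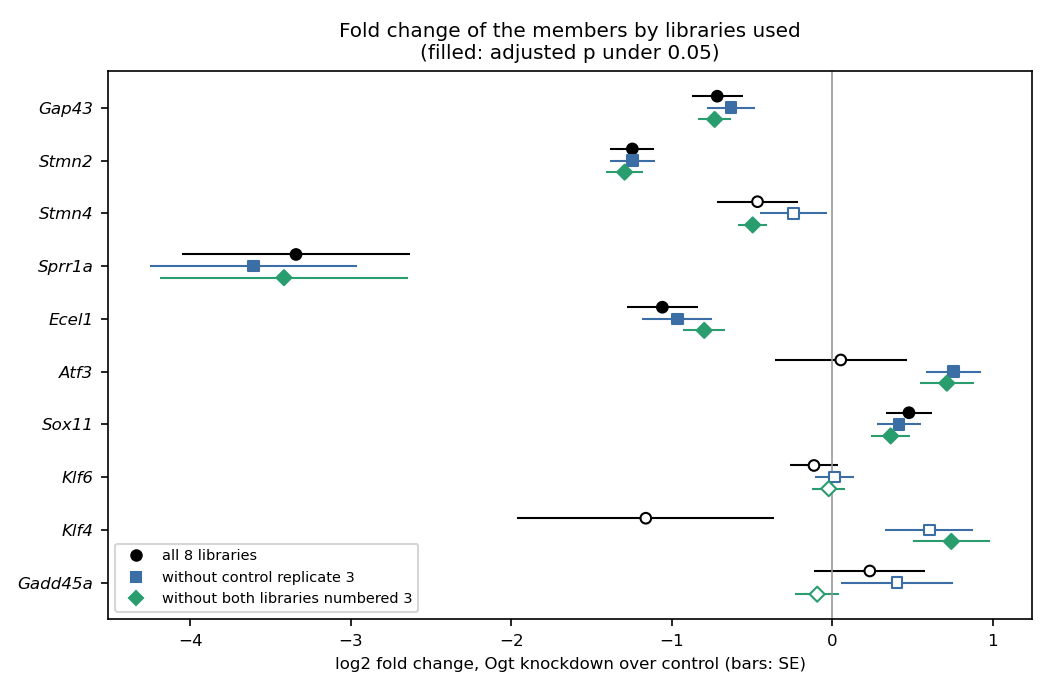
Log2 fold change of each member, Ogt knockdown over control, with bars of 1 SE, from all 8 libraries, without control replicate 3, and without both libraries numbered 3; filled symbols have an edgeR adjusted p under 0.05. Stmn2, Gap43, Ecel1, Sprr1a and Sox11 keep their side of 0 in each of the 3 fits, and Klf4 changes sign, from -1.16 to 0.60 and 0.74.

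Across choices of libraries, 4 members were lower and 2 higher without control replicate 3, where 34.9% of all genes tested were called. Without both libraries numbered 3, 5 were lower and 3 higher, and 46.8% of all genes tested were called. The median log2 fold change of the members was -0.11 and -0.295 in these fits, where the median of all genes tested was 0.07 and 0.06. The members added to the calls were Atf3 in both cases and Stmn4 and Klf4 in the latter.

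Per kilobase of exon, Gap43 was the most abundant member in the controls, at 475.7 ± 63.02 CPM per kb (SD, n = 4), rank 70 of the genes tested. Stmn2 (113.8 ± 2.467 CPM per kb) and Stmn4 (81.3 ± 24.51) came next and their control ranges overlapped. Ecel1 followed at 10.92 ± 1.659 CPM per kb, apart from both neighbours. Gadd45a (6.017 ± 1.4), Klf6 (5.894 ± 1.05), Sprr1a (3.275 ± 3.093), Atf3 (3.198 ± 2.488), Klf4 (1.98 ± 2.801) and Sox11 (1.513 ± 0.169 CPM per kb) formed the lower end, where each gene's control range overlapped that of the next. The Klf4 and Atf3 means rest on control replicate 3. Without it they were 0.581 ± 0.00208 and 1.958 ± 0.2566 CPM per kb (SD, n = 3), and Klf4 was then below Sox11 and the lowest member. In the knockdown libraries Sprr1a had the lowest mean per kilobase, at 0.318 ± 0.1515 CPM per kb.

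The stathmin family, whose proteins bind tubulin dimers, was measured in 4 genes. Stmn3 fell 2.15-fold, from 1154 ± 235.2 to 537.5 ± 195.5 CPM (SD, n = 4 each, edgeR adjusted p = 0.00936), with non-overlapping groups. Stmn1, which dividing cells express as well, had 623.9 ± 155.8 and 408.3 ± 108.9 CPM and did not pass (log2 fold change -0.61, adjusted p = 0.065). It passed without knockdown replicate 3 (log2 fold change -0.79, adjusted p = 0.0204, range over the alternatives 0.000828 to 0.141). With all 8 libraries Stmn2 and Stmn3 were thus lower, where 28.5% of all genes tested were called. All 4 stathmins were lower without both libraries numbered 3, where 46.8% of all genes tested were called. Of the 10 pan-neuronal markers 9 and 10 were lower in these fits, and their part in the falls of the stathmins was not tested.

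Gadd45a's relatives both rose. Gadd45b, at 9.461 ± 1.497 CPM in the controls, rose 2.17-fold to 20.58 ± 9.415 CPM (edgeR adjusted p = 0.0146), and Gadd45g, at 28.18 ± 4.112 CPM, rose 2.29-fold to 64.43 ± 25.53 CPM (adjusted p = 0.00562; SD, n = 4 each). Both genes are stress-responsive in many cell types. As for Gadd45a, knockdown replicate 3 was the highest library for each (34.5 and 102.7 CPM), but here the other 3 knockdown libraries were above every control too. Without both libraries numbered 3 the rises were smaller, 1.80-fold and 1.76-fold (edgeR adjusted p = 0.000303 and 9.28e-05). In that fit 46.8% of all genes tested were called. Astrocyte and microglial markers were higher in the knockdown libraries, and their part in these rises was not tested. Whether Gadd45a differs from its relatives in its change was not tested.

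Of the SoxC relatives of Sox11, Sox4 rose 1.87-fold, from 17.84 ± 5.943 to 33.28 ± 7.237 CPM (SD, n = 4 each, edgeR adjusted p = 0.0337). Its call was lost without any 1 of control replicates 4, 5 and 6 and knockdown replicates 2, 4 and 5, with adjusted p up to 0.102 and a log2 fold change of at least 0.68 over all the fits that left out 1 library. Sox12 had 12.9 ± 0.7227 and 12.38 ± 0.9224 CPM and did not pass (log2 fold change -0.06, adjusted p = 0.785, and 0.03 under upper quartile scaling).

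Of the 14 other Krüppel-like factors tested, 2 rose and 1 fell, against 13.4% higher and 15.1% lower over all genes tested. Klf15, a glucocorticoid-induced gene, rose 1.57-fold, Klf3 rose 1.35-fold and Klf16 fell 1.40-fold (edgeR adjusted p = 0.0347, 0.035 and 0.0171). Each of these 3 calls was lost in some fit that left out 1 library: Klf3 without any 1 of control replicates 4, 5 and 6 and knockdown replicates 2, 4 and 5 (up to 0.115), Klf15 without control replicate 4 or knockdown replicate 2, 4 or 5 (up to 0.107), and Klf16 without control replicate 5 (0.0509). The growth-promoting Klf7 (24.88 ± 2.595 and 26.83 ± 4.591 CPM) and the growth-repressing Klf9 (120.7 ± 28.65 and 120.9 ± 13.54 CPM) did not pass. Klf14, close to the floor in the controls, had 0.0614 ± 0.046 and 0.321 ± 0.0187 CPM (SD, n = 4 each) in groups that did not overlap, and did not pass with all libraries (log2 fold change 2.31, edgeR adjusted p = 0.0523). It was higher in the knockdown libraries without control replicate 3 (2.63, adjusted p = 0.0351) and without both libraries numbered 3 (2.60, adjusted p = 0.0256), with adjusted p from 0.00338 to 0.254 over the alternatives.

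Ecel1's nearest enzyme relatives that changed were Ece2, which fell 3.00-fold, and Mmel1, which fell 2.03-fold (edgeR adjusted p = 0.00971 and 0.0118). Ece2 stood at 11.37 CPM in control replicate 3 and at 3.64 to 5.121 CPM in the other controls. Without control replicate 3 its fall was 2.14-fold (edgeR adjusted p = 0.00339, where 34.9% of all genes tested were called). Pan-neuronal markers were lower in the same knockdown libraries, and their part in the falls of Ece2 and Mmel1 was not tested. Both genes belong to the neprilysin family of metallopeptidases. Ece1, Mme and Phex did not pass with all libraries. Ece1 stood at 90.94 CPM in control replicate 3, 37.87 to 49.19 in the other controls and 52.04 to 60.82 in the knockdown libraries, and was higher without both libraries numbered 3 (log2 fold change 0.37, edgeR adjusted p = 0.0119, range over the alternatives 0.0119 to 0.998). The other small proline-rich genes were chosen for mention after their values were seen. Sprr1b, Sprr2h and Sprr3 had 0 reads in all 8 libraries, Sprr2a1 had 2 reads in control replicate 6 and 8 in knockdown replicate 2, and Sprr2d had 4 reads in knockdown replicate 4. Among the family relatives as a whole, 5 of 25 tested were higher and 4 lower (32 listed), with a median log2 fold change of 0.002. Over all genes tested 13.4% were higher and 15.1% lower, with the same median. The count higher fell to 2 without control replicate 4 or knockdown replicate 2, 4 or 5 and to 3 without control replicate 5 or 6.

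The other transcription factors listed for injury and regeneration were more often higher than lower. This list was chosen with results of these data known, and it also holds a repressor of neuronal genes (Rest) and a stress factor (Ddit3). Of 20 tested, 11 were higher and 2 lower, with a median log2 fold change of 0.46, against 13.4% higher and 15.1% lower over all genes tested. Jun, the partner of Atf3 in injured neurons, stood at 80.96, 62.51, 70.73 and 71.3 CPM in the controls and at 117.4, 144.2, 118.2 and 126.9 CPM in the knockdown libraries. Its groups were apart, and it rose 1.77-fold (edgeR adjusted p = 0.00136). Rest, a repressor of neuronal genes, rose 3.53-fold, from 6.304 ± 0.9633 to 22.26 ± 2.62 CPM (adjusted p = 0.000184). Cebpd, an inflammation-induced factor, rose 7.72-fold to 95.55 ± 53.83 CPM from 12.33 ± 6.899 (adjusted p = 0.00308; SD, n = 4 each). Knockdown replicate 3 was its highest library at 171.2 CPM, and without both libraries numbered 3 the rise was 4.82-fold (edgeR adjusted p = 0.0138, range over the alternatives 2.18e-10 to 0.0414). Ddit3 (CHOP), a factor of the integrated stress response, rose 2.75-fold from 46.41 ± 15.8 to 127.6 ± 35.53 CPM (adjusted p = 0.00258; SD, n = 4 each). The symbol Ddit3 stood for 2 gene IDs, and these values are of the ID with more reads. The LIM-domain cofactor Lmo4 fell 1.37-fold and Creb1, a mediator of cyclic AMP signals, 1.30-fold (adjusted p = 0.0181 and 0.0403). The Creb1 call was lost without any 1 of control replicates 4, 5 and 6 and knockdown replicates 4 and 5 (up to 0.12), and the Lmo4 call without control replicate 5 (0.0533). The count higher was 7 without control replicate 4 or without knockdown replicate 4, and the count lower was 0 without control replicate 5 and 1 without any 1 of control replicates 4 and 6 and knockdown replicates 4 and 5. Astrocyte markers (3 of 10 called, and 7 of 10 without control replicate 3) and microglia and macrophage markers (10 of 12 called) were higher in the same libraries. Which cells the added messages came from was not tested.

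Among other growth cone and injury effectors, 6 of 33 tested were higher and 6 lower (34 listed, median log2 fold change 0.07), against 13.4% and 15.1% of all genes tested. The lower genes named by rule were the tubulins Tubb3 (4.91-fold, from 1042 ± 199.2 to 212.2 ± 32.91 CPM) and Tubb2a (2.91-fold), the growth cone protein Basp1 (2.16-fold, from 393.3 ± 34.56 to 182.1 ± 33.41 CPM) and the adhesion molecule L1cam (3.09-fold), with edgeR adjusted p from 0.000118 to 0.00188. Basp1, often grouped with Gap43 for its like membrane role, stood at 354.4 to 437.3 CPM in controls and 150 to 225.1 CPM in knockdowns. The higher genes named by rule were the cytokines Lif (4.07-fold, from 3.032 ± 1.484 to 12.36 ± 1.703 CPM) and Csf1 (2.44-fold), the neurotrophin receptor Ngfr (2.18-fold) and the hyaluronan receptor Cd44 (4.35-fold), with adjusted p from 0.00408 to 0.0116. Cd44 rose 2.89-fold without both libraries numbered 3 (adjusted p = 2e-06, range over the alternatives 2e-06 to 0.105). Tgm1, a transglutaminase that crosslinks proteins and was chosen for mention after its values were seen, rose 18.11-fold, from 2.57 ± 1.725 to 46.69 ± 29.85 CPM (SD, n = 4 each, edgeR adjusted p = 0.0136), and 9.56-fold without both libraries numbered 3 (adjusted p = 0.000193, range over the alternatives 0.000126 to 0.149). Tubb3 is itself one of the pan-neuronal markers, which were lower in the same knockdown libraries, while 10 of 12 microglia and macrophage markers were higher, and the part of either in these counts was not tested. The peptide messages that axotomised neurons are known to raise, Gal, Npy and Vip, were chosen for mention after their values were seen. They had 4.717 ± 2.364, 9.408 ± 2.465 and 8.355 ± 1.453 CPM in knockdowns against 4.534 ± 1.151, 9.09 ± 4.232 and 8.091 ± 3.033 CPM in controls, and did not pass. The other listed peptides, Nts, Crh and Adcyap1, did not pass with all libraries. Adcyap1 was lower without both libraries numbered 3 (edgeR adjusted p = 0.0351). Chosen in the same way, Hspb1, Anxa2 and Tnfrsf12a did not pass with all libraries. Without control replicate 3 these 3 were higher by 2.61-fold, 3.06-fold and 1.64-fold (edgeR adjusted p = 0.00228, 0.00123 and 0.0166). In that fit 9 of 33 effectors were higher and 8 lower, and 34.9% of all genes tested were called.

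Of 18 genes of DLK-JNK signalling and axon degeneration, 7 were lower and 1 higher, with a median log2 fold change of -0.33, against 15.1% lower and 13.4% higher over all genes tested. Pan-neuronal markers were lower in the same libraries (9 of 10, median log2 fold change -1.18), and their part in these falls was not tested. The JNK genes Mapk9 (1.76-fold) and Mapk8 (1.69-fold), their activating kinase Map2k4 (1.66-fold) and the palmitoyltransferase Zdhhc17 (1.90-fold) fell, with edgeR adjusted p from 0.001 to 0.00314. Bbc3 (PUMA), a pro-apoptotic gene, was the 1 that rose, 2.11-fold, from 13.93 ± 1.045 to 29.33 ± 4.837 CPM (adjusted p = 0.00105). DLK itself (Map3k12, chosen after its values were seen) had 87.03 ± 3.608 and 58.69 ± 21.92 CPM (SD, n = 4 each) and did not pass with all libraries (edgeR adjusted p = 0.133). Its groups did not overlap, with knockdown replicate 3 at 27.22 CPM and the other knockdown libraries at 60.38 to 74.98 CPM. It was lower without both libraries numbered 3 (log2 fold change -0.33, edgeR adjusted p = 0.0102, range over the alternatives 0.0102 to 0.24).

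Of 22 genes known as brakes on regrowth, 5 were higher and 2 lower (median log2 fold change -0.03), against 13.4% and 15.1% of all genes tested. Microglia and macrophage markers (10 of 12 higher) and pan-neuronal markers (9 of 10 lower) moved in the same libraries, and their part was not tested. Socs3, which blunts JAK-STAT signals, rose 4.57-fold from 3.132 ± 0.9177 to 14.35 ± 2.846 CPM, Tnfrsf19 (TROY), a partner of the Nogo receptor, rose 2.13-fold, the semaphorin receptor Nrp1 1.75-fold and the kinase Rock1 1.66-fold (edgeR adjusted p = 0.000567, 0.000487, 0.00138 and 0.0405). The Nogo receptor Rtn4r fell 2.14-fold and its partner Lingo1 1.65-fold (adjusted p = 0.00354 and 0.0434). The Rock1 call was lost without any 1 of control replicates 4, 5 and 6 and knockdown replicates 2, 3 and 4 (up to 0.116), and the Lingo1 call without any 1 of control replicates 4, 5 and 6 and knockdown replicates 2 and 5 (up to 0.102). The count higher was 3 without any 1 of control replicates 4, 5 and 6 and knockdown replicates 2 and 4. The count lower was 1 without any 1 of control replicates 4, 5 and 6 and knockdown replicates 2 and 5.

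**Figure D4:**
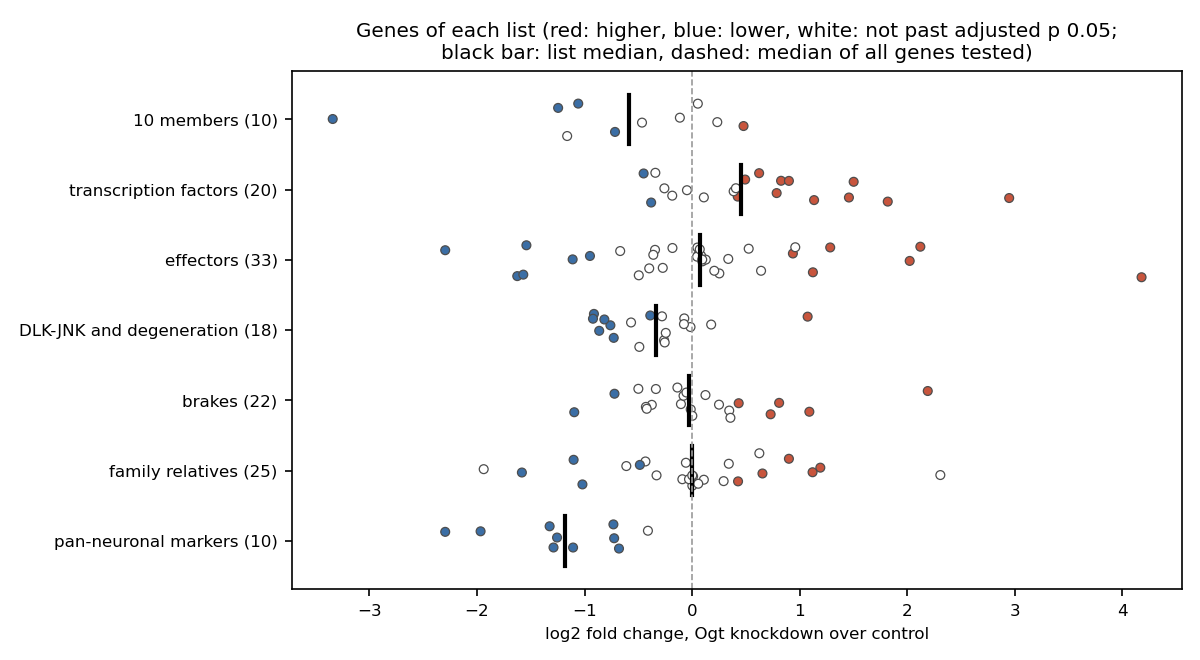
Log2 fold change of each gene (1 point per gene tested, red higher, blue lower, white not past an adjusted p of 0.05) in the members, 5 related lists and 10 pan-neuronal markers, with a black bar at each list's median and a dashed line at the median of all genes tested. The medians run from -1.18 for the neuronal markers and -0.59 for the members to 0.46 for the transcription factors.

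For each member the genes with the most similar profile over the 8 libraries were found among all tested genes with a symbol, by the Euclidean distance of centred log2 CPM. Stmn2 lay nearest to Rab3a (distance 0.146), Got1 (0.17) and Magee1 (0.195), the first a synaptic vesicle GTPase. Gap43 lay nearest to Rangap1 (0.14), Ssb (0.143) and Rnd1 (0.162), and Ecel1 to Slc6a17 (0.312), Gpr158 (0.364) and Grip2 (0.364). Sox11 lay nearest to Smad1 (0.172), itself a regeneration factor, then Slx4ip (0.202) and Tmem164 (0.21). Klf4 lay nearest to Abcc9 (0.612), a pericyte marker of the list used above, then Col11a1 (0.647) and Atp10a (0.649). Atf3 lay nearest to Prkd2 (0.339), Tcirg1 (0.434) and Lipe (0.436), and Klf6 to Rbms1 (0.143), Taf1b (0.172) and Mettl13 (0.183). Gadd45a lay nearest to Ndufa5 (0.38), Eif3d (0.398) and Frg1 (0.413), and Stmn4 to Cfdp1 (0.261), Magoh (0.271) and B230216N24Rik (0.299). Sprr1a had no close gene: the nearest were Gnb3 (2.139), Gm3571 (2.287) and Agbl4 (2.311). Among the members themselves the closest pair was Gap43 and Stmn4 (0.687), then Gap43 and Stmn2 (0.836), and Sprr1a was 3.534 from its nearest, Ecel1.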

How the data were processed

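The file the authors deposited holds read counts of every gene in all 8 libraries. These were made with featureCounts 2.0.3 over exons of GENCODE vM30, per the file headers, without strand, pairs or multi-mapping reads. Per the submitters' processing notes, FastQC, Trimmomatic, STAR and the build mm10 were used. Of 3328 genes over 50 CPM in every library, 2752 have a table interval (GRCm39) that does not overlap their mm10 position, so reads were counted at GRCm39 positions. Symbols came from GENCODE M21 by gene ID (52073 matched; 4618 did not, with 0.327 to 1.809% of reads). Groups follow the labelled genotype. Chi-square over degrees of freedom between libraries of a group was 24.98 to 463.4, so none were copies or splits of the same reads. Whether libraries share an animal or an RNA pool cannot be told from these values.

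Counts were filtered with filterByExpr, scaled by TMM and tested with edgeR 4.0.16 (robust quasi-likelihood, two-sided, R 4.3.3), with Benjamini-Hochberg adjustment over 19912 genes and a threshold of 0.05. The test was tried on simulated data. CPM are TMM-scaled. Profile distances used log2 CPM with a prior count of 2. Members and lists were chosen with earlier results of these data known. Some genes stand in more than 1 list: Sox4 and Klf7 (transcription factors, relatives), Klf9 (brakes, relatives), Tubb3 (effectors, neuronal markers) and Mag (brakes, oligodendrocyte markers). Named by rule were the members, Ogt, the up to 4 genes of lowest p per list and direction, all stathmin, Gadd45, SoxC and tested Klf relatives, and the 3 nearest profiles of each member. Il6 and 7 of the relatives were too low to test. The alternatives were scaling by upper quartile or RLE, omitting the filter or keeping genes at CPM 1 or more in 4 or more libraries, DESeq2 1.42.0, limma-voom with quality weights (limma 3.58.1), non-robust estimation, a replicate block, and leaving out each library or both numbered 3. RefSeq promoter windows (GRCm38.p6) matched 7 of 10 members.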

Additional observations from a re-analysis of the deposited data

Results flagged for a closer look

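Among 63 genes (the members, Ogt and the list genes named by rule), each examined in both groups of 4 libraries, 19 values stood apart by more than Dixon's 95% limit, where chance gives about 1 in 20 groups. Of these, 11 were control replicate 3 and 6 were knockdown replicate 3.

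Among the members, control replicate 3 was the high value for Klf4 (18.85 CPM against 1.764 to 1.775 in the other controls) and Atf3 (14.9 against 3.8 to 4.845). Knockdown replicate 3 was the high value for Gadd45a (23.6 CPM against 7.902 to 9.559) and Stmn4 (168.3 against 92.24 to 97.65). Control replicate 5 was the low value for Stmn2, at 617.1 CPM against 643.3 to 645.5 in the other controls, a small gap in a very tight group.

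Control replicate 3 was also the high value for Klf2 (50.5 CPM), Ddit3 (70.01), Rtn4r (29.21) and the neuronal genes Stmn1 (855.1), Stmn3 (1505) and Tubb3 (1339 CPM). It was the low value for Klf5 (1.299 CPM), Sox4 (8.933) and Mapk9 (270.8 CPM). Knockdown replicate 3 was the high value for Gadd45g (102.7 CPM), Klf2 (6.371) and Cd44 (47.71), and the low value for Csf1 (55.44 CPM). Control replicate 4 was the high value for Klf3, at 19.15 CPM.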

How the results depend on the processing

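Stmn2 and Sprr1a stayed lower and past the threshold under each alternative that was run and gave a value (17 for Stmn2, 16 for Sprr1a, which the strict filter removed), and Ecel1 and Gap43 under 16 of 17. Leaving out 1 library in turn gave 4 to 5 members lower and 0 to 2 higher. Over the lists it gave, higher and lower, 7 to 11 and 0 to 3 transcription factors, 5 to 9 and 6 to 8 effectors, 1 and 6 to 9 DLK-JNK genes, 3 to 6 and 1 to 3 brakes, and 2 to 7 and 3 to 5 relatives. Log2 fold changes that turned sign when 1 library was left out ranged from -0.17 to 0.75 for Atf3, -0.27 to 0.40 for Gadd45a, -0.182 to 0.015 for Klf6, -1.48 to 0.60 for Klf4, -2.37 to 1.37 for Klf2, -0.40 to 0.80 for Klf1, -0.26 to 0.10 for Klf10, -0.05 to 0.11 for Klf13, -0.241 to 0.036 for Klf8 and -0.16 to 0.088 for Klf9. Without both libraries numbered 3, 3 members were higher, and 4 transcription factors were lower, 11 effectors higher, 5 brakes lower and 8 relatives higher. The log2 fold changes that turned sign were then Gadd45a -0.094, Klf4 0.742, Klf2 0.939, Klf1 -0.288 and Klf9 -0.089. With limma-voom and quality weights, 3 members were higher, 4 transcription factors lower, 11 effectors higher, and 8 brakes higher and 4 lower, with Gadd45a at -0.054, Klf4 0.694, Klf2 0.773, Klf1 -0.607 and Klf9 -0.094. Without a filter, 0 members were higher and 1 transcription factor lower (Klf1 -0.041, Klf9 -0.042). Upper quartile scaling, which moved the median of all genes from 0.002 to 0.091, left 0 transcription factors and 1 brake lower (Klf10 0.066, Sox12 0.033), and the strict filter gave Klf10 at 0.005. The cause of these moves was not tested. Over all genes tested, the counts higher and lower were 2659 and 3009 as reported, 3602 and 3252 with DESeq2, 5251 and 4967 with limma-voom, 2032 and 2881 without a filter, and 4805 and 4760 without both libraries numbered 3.

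No label says that the 3 replicate numbers that both groups carry (3, 4 and 5) pair the samples. Deviations from the group means correlated by 0.104, 0.099 and 0.042 between libraries of the same number. Between libraries of different numbers they correlated by -0.103 to 0.081, and control replicate 5 correlated best with knockdown replicate 4 (0.044). Correlations this weak cannot decide whether the numbers pair the samples. A replicate block, which leaves fewer residual degrees of freedom, gave 2 members lower (Stmn2, adjusted p = 0.0389, and Sprr1a, 0.0458; Ecel1 0.0873, Gap43 0.072) and 0 higher (Sox11 0.107). The block gave 5 transcription factors higher and 0 lower, 1 effector higher, 4 DLK-JNK genes lower, 2 brakes higher and 0 lower, 1 relative higher and 1 lower, with Klf10 at 0.071 and Klf13 at -0.035. Over all genes it called 480 higher and 778 lower. DESeq2 gave no adjusted p for Klf4 or Klf2. Depth limits the lowest values: Sprr1a in the knockdown libraries rests on 8 to 32 reads.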
